A study of Mus musculus with 2 samples.

Results

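The miR-99/100, let-7 and miR-125 genes form 3 paralogous clusters in the mouse genome, each with a miR-99/100 gene first, then a let-7 gene and last a miR-125 gene. Their 9 genes were taken by symbol from the 2202 annotated miRNA genes measured, and all 9 were found: Mir99a, Mirlet7c-1 and Mir125b-2 on chromosome 16, Mir99b, Mirlet7e and Mir125a on chromosome 17, and Mir100, Mirlet7a-2 and Mir125b-1 on chromosome 9. MicroRNA-seq, which sequences small RNA, was made from adrenal gland tissue of male B6CASTF1/J mice, an F1 hybrid strain, aged 14 days. The design has 1 group of 2 libraries, biological replicates 1 and 2, with no treatment, no mutant allele and no second condition. Each library's label names 3 males and both carry 1 donor record. Whether a library pools animals, and whether the libraries come from different animals, is not stated, so an SD here is the spread between these libraries, which may be technical. The question was how genes at the same position of the 3 clusters compare in level within the gland, and how far each differs between the libraries.

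A miRNA gene is transcribed as a longer RNA, from which a hairpin is cut and then trimmed to a short mature strand from its 5′ arm (5p) or its 3′ arm (3p). The mature strand finds target mRNAs mainly by its seed, bases 2 to 8. The let-7 miRNAs restrain growth and mark the change from fetal to later programmes, and the RNA-binding protein LIN28 blocks their maturation. The miR-125 miRNAs are the vertebrate relatives of worm lin-4, which like let-7 was found as a timing gene, and miR-99/100 miRNAs are known to act on the mTOR pathway. Genes of such a cluster may be cut from a common primary transcript.

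The 5p sequences are shown because they decide which of the 9 genes can be told apart by their reads. They come from RefSeq on GRCm38.p6, which listed a mature strand for all 9 genes. The 5p strand of Mirlet7a-2 was taken from the entry of Mirlet7a-1, and its hairpin holds it exactly. Capitals mark the seed.
miR-99a-5p (Mir99a): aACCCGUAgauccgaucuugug
miR-99b-5p (Mir99b): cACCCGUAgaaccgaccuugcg
miR-100-5p (Mir100): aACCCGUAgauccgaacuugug
let-7c-5p (Mirlet7c-1, also Mirlet7c-2): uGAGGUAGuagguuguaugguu
let-7e-5p (Mirlet7e): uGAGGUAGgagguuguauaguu
let-7a-5p (Mirlet7a-2, also Mirlet7a-1): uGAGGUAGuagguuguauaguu
miR-125b-5p (Mir125b-2 and Mir125b-1): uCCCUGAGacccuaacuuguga
miR-125a-5p (Mir125a): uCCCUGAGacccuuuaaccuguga

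The seed is the same at a given position of all 3 clusters, and the 9 genes give 8 distinct 5p strands. With positions counted from 1 at the 5′ end, miR-99a-5p and miR-100-5p differ by U16A alone, and miR-99a-5p and miR-99b-5p by A1C, U11A, U16C and U21C. Between let-7c-5p and let-7a-5p the difference is G19A, and between let-7e-5p and let-7a-5p it is G9U. The strand of miR-125a-5p is 24 bases long against 22 for miR-125b-5p, and the first 13 bases are the same. A search of the 5p strands in all measured hairpins, in the orientation of each gene, placed those of Mir99a, Mir99b, Mir100, Mirlet7e and Mir125a in 1 hairpin each. Those of Mirlet7c-1, Mirlet7a-2, Mir125b-1 and Mir125b-2 are held by 2 hairpins each. For these 4 genes the 3p strand is the one found in no other measured hairpin, and it is shown for that reason.
let-7c-1-3p (Mirlet7c-1): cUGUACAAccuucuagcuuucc
let-7a-2-3p (Mirlet7a-2): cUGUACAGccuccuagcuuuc
miR-125b-2-3p (Mir125b-2): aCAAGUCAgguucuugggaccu
miR-125b-1-3p (Mir125b-1): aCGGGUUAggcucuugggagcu

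All 3 clusters lie on the plus strand of mm10 in the order miR-99/100, let-7, miR-125, and they differ in spacing. On chromosome 17, Mir99b (17830188-17830257), Mirlet7e (17830352-17830444) and Mir125a (17830812-17830879) stand within 692 bases. They lie in introns of Spaca6, a gene of sperm and egg fusion, and Mir125a also overlaps an exon of 1 of the 16 annotated Spaca6 transcripts. On chromosome 16, Mir99a (77598936-77599000) and Mirlet7c-1 (77599657-77599750) are separated by 656 bases and Mir125b-2 (77646273-77646343) follows after 46522 bases. All of them lie in introns of the non-coding host Mir99ahg, and the end of Mir125b-2 overlaps an exon of C130023A14Rik, a transcript annotated as still to be tested by experiment. On chromosome 9, Mir100 (41531425-41531504), Mirlet7a-2 (41536716-41536811) and Mir125b-1 (41581926-41582002) are 5211 and 45114 bases apart, in introns of the non-coding gene 3110039I08Rik. Annotations on the opposite strand cover Mirlet7e (the miRNA Gm25927), Mir100 (an exon of Gm48742) and Mir99a and Mirlet7c-1 (an intron of Gm11146), and counts are those of the gene's own strand. Host transcripts were not measured here.

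Replicate 1 held 3024662 counts in miRNA genes and replicate 2 held 3464837. Levels are CPM, counts scaled to a common total in each library, so 1 count was 0.331 CPM in replicate 1 and 0.289 in replicate 2. Each mean is given with its SD over the libraries (n = 2). A read spans a mature strand of similar length in every member, 22 to 24 bases for the 5p strands, so CPM was not divided by a length. Reads that mapped to several places are in no gene. They numbered 1972020 in replicate 1 and 2497097 in replicate 2, which is 65.2 and 72.1 for every 100 counts assigned to a miRNA gene. No miRNA is a sure defining marker of adrenal cortex. The neuroendocrine list (Mir375, Mir7-1, Mir7-2, Mir7b), as of the adrenal medulla, held 3.11% and 3.43% of counts in replicates 1 and 2.

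By assigned counts, the first position was the highest of each cluster. On chromosomes 16 and 9 the other members have a 5p strand that a further hairpin also holds. Reads that match both hairpins equally well are in no gene, and their part in this order was not tested. Mir99a was counted at 17058 CPM in replicate 1 and 18102 in replicate 2, a mean of 17580 ± 738, and ranked 16th of 2202 genes in each library. Mir99b was at 7326 and 7307 CPM, a mean of 7316 ± 13.8. Mir100 was at 3855 and 3984 CPM, a mean of 3919.7 ± 91.0. The libraries lay close together and the ranges of these 3 genes did not overlap. Within a library, Mir99a exceeded Mir99b by 2.33-fold (95% exact counting interval 2.29 to 2.37) and 2.48-fold (2.44 to 2.51). It exceeded Mir100 by 4.42-fold (4.34 to 4.51) and 4.54-fold (4.46 to 4.63). Mir99b exceeded Mir100 by 1.90-fold (1.86 to 1.94) and 1.83-fold (1.80 to 1.87). The intervals of the libraries do not overlap for Mir99a over Mir99b, and they do for the other pairs. All 3 genes that carry the miR-99/100 seed in the RefSeq table are members, so their sum of 28816 ± 815 CPM is the whole of that seed family. Each of the 3 can be told from the others by its 5p strand, although Mir99a and Mir100 by 1 base.

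At the let-7 position the order was another one, with the chromosome 17 gene on top. Mirlet7e was counted at 5247 CPM in replicate 1 and 6944 in replicate 2, a mean of 6095 ± 1200.1. Mirlet7c-1 was at 362 and 476 CPM, a mean of 419 ± 80.3, and Mirlet7a-2 at 150.4 and 184 CPM, a mean of 167 ± 23.6. The ranges did not overlap, and all 3 genes were higher in replicate 2. Mirlet7e exceeded Mirlet7c-1 by 14.5-fold (13.6 to 15.4) in replicate 1 and 14.6-fold (13.9 to 15.4) in replicate 2. It exceeded Mirlet7a-2 by 34.9-fold (31.8 to 38.4) and 37.8-fold (34.9 to 40.9), and Mirlet7c-1 exceeded Mirlet7a-2 by 2.41-fold (2.16 to 2.69) and 2.59-fold (2.36 to 2.84). Mirlet7c-1 and Mirlet7a-2 are the genes whose 5p strand is also held by Mirlet7c-2 and Mirlet7a-1. Reads that match both hairpins of such a pair equally well map to several places, so they are in no gene. The part of these reads in the order was not tested.

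At the miR-125 position the chromosome 17 gene was again the highest. Mir125a was counted at 1654 CPM in replicate 1 and 3191 in replicate 2, a mean of 2423 ± 1087. Mir125b-1 was at 217 and 223 CPM, a mean of 220.0 ± 4.83, and Mir125b-2 at 137 and 159 CPM, a mean of 148 ± 15.9. Mir125a stood far above the other two in each library, but its own libraries lay widest apart. It exceeded Mir125b-1 by 7.64-fold (7.04 to 8.30) in replicate 1 and 14.3-fold (13.3 to 15.4) in replicate 2. It exceeded Mir125b-2 by 12.1-fold (10.9 to 13.4) and 20.0-fold (18.4 to 21.9). The intervals of the 2 libraries do not overlap for either pair, so the size of this gap was not stable between them. Mir125b-1 exceeded Mir125b-2 by 1.58-fold (1.40 to 1.79) and 1.40-fold (1.26 to 1.57). Both hold the identical miR-125b-5p. Reads that match both hairpins equally well map to several places, so they are in no gene. The part of these reads in the gap to Mir125a was not tested.

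**Figure D1:**
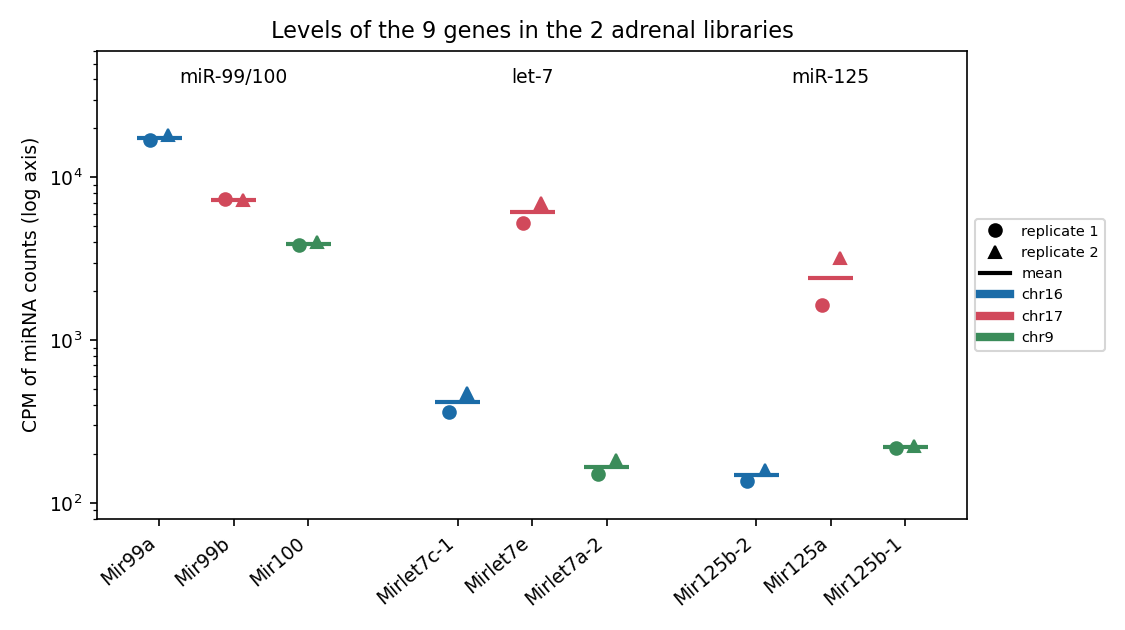
Levels of the 9 genes in CPM of all miRNA counts on a log axis, grouped by position and coloured by cluster. Circles are replicate 1, triangles replicate 2 and bars their mean: the miR-99/100 genes lie between 3855 and 18102 CPM, while at the let-7 and miR-125 positions the chromosome 17 genes lie above the other two.

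Ordered by mean CPM of assigned counts, the genes were Mir99a, Mir99b, Mirlet7e, Mir100, Mir125a, Mirlet7c-1, Mir125b-1, Mirlet7a-2 and Mir125b-2. This order was the same in each library. Of the 8 neighbouring pairs in it, only Mirlet7a-2 and Mir125b-2 had ranges that overlapped between the libraries. Mir99b and Mirlet7e came close in replicate 2, at a ratio of 1.05, against 1.40 in replicate 1. Levels were not tested, because the smallest p that exact two-sided sign flips of 2 libraries allow is 0.5.

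Summed over assigned counts by cluster, chromosome 16 held 18147 ± 834 CPM, chromosome 17 held 15834 ± 2273 and chromosome 9 held 4307 ± 119. The sums of chromosomes 16 and 9 leave out reads that match a let-7 or miR-125 member and a further hairpin equally well. On chromosome 17 no member shares its 5p strand with another measured hairpin. The part of the unassigned reads in the order of the sums was not tested. The chromosome 16 sum exceeded the chromosome 17 sum in replicate 1, at 17557 against 14227 CPM, and in replicate 2, at 18737 against 17442. The ranges of these sums did not overlap, although the highest chromosome 17 value came close to the lowest chromosome 16 value. All 9 genes together took 3.60% of miRNA counts in replicate 1 and 4.06% in replicate 2.

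The clusters differed in composition. On chromosome 16, Mir99a made up 97.2% of the cluster in replicate 1 (exact Clopper-Pearson interval 97.0 to 97.3) and 96.6% of it in replicate 2 (96.5 to 96.7). On chromosome 9, Mir100 made up 91.3% (90.8 to 91.8) and 90.7% (90.3 to 91.2). On chromosome 17 the counts were spread over the 3 genes. Mir99b held 51.5% (51.0 to 52.0) and 41.9% (41.5 to 42.3), Mirlet7e 36.9% (36.4 to 37.3) and 39.8% (39.4 to 40.2), and Mir125a 11.6% (11.3 to 11.9) and 18.3% (18.0 to 18.6). The chromosome 17 cluster is the one in which all 3 members have a 5p strand held by no other measured hairpin. Whether the compositions would be alike with the unassigned reads was not tested.

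**Figure D2:**
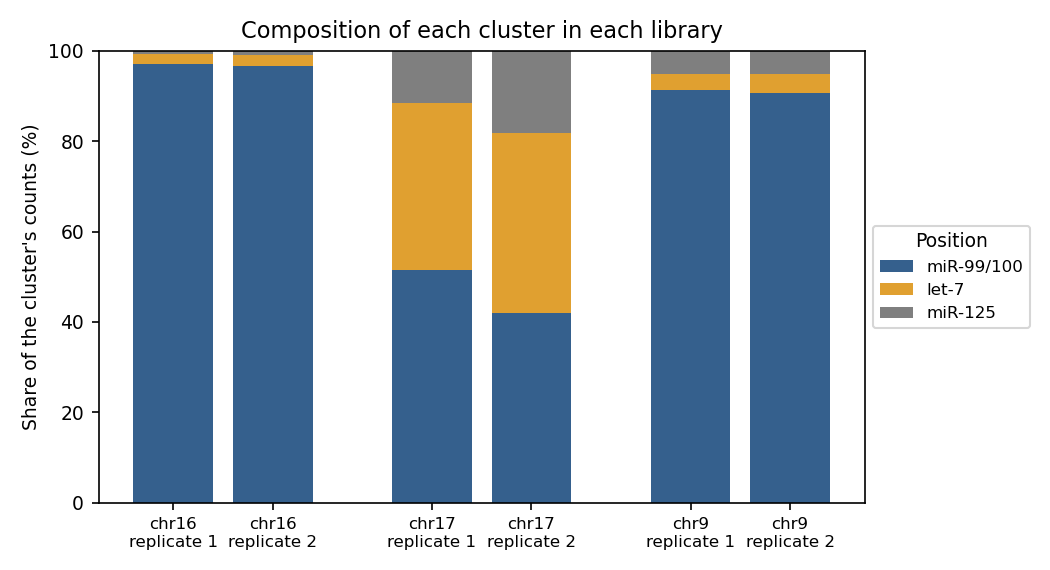
Share of each cluster's counts, in percent, held by its miR-99/100, let-7 and miR-125 gene, with 1 bar for each library. The miR-99/100 gene fills at least 90.7% of the bars of chromosomes 16 and 9, and 51.5% and 41.9% of those of chromosome 17.

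The counted level was split by whether the 5p strand is shared with another measured hairpin. The 5 members whose 5p strand is held by 1 hairpin had means of 2423 to 17580 CPM, and the 4 whose strand is held by 2 hairpins had means of 148 to 419 CPM. The longest exact run a hairpin shared with another measured hairpin was 11 to 17 bases in the first set and 23 to 24 in the second. The 9 let-7 genes outside the clusters were split in a like way. Mirlet7b, Mirlet7d, Mirlet7g, Mirlet7i and Mir98, whose 5p strand is held by 1 hairpin, had means of 4088 to 76270 CPM. Within this set the longest run, 19 bases, was in Mirlet7b, Mirlet7g and Mirlet7i, its highest genes, so level did not fall steadily with run length. Mirlet7a-1, Mirlet7c-2, Mirlet7f-1 and Mirlet7f-2, whose strand is shared, had means of 149 to 3528 CPM. The highest of these 4 was Mirlet7f-2 at 3528 CPM. Its longest run, shared with Mirlet7f-1, was 22 bases, against 149 CPM for Mirlet7f-1 with the same run. The points are genes of the same 2 libraries and of a few related families, so this is a description. The files do not say which reads were left unassigned.

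**Figure D3:**
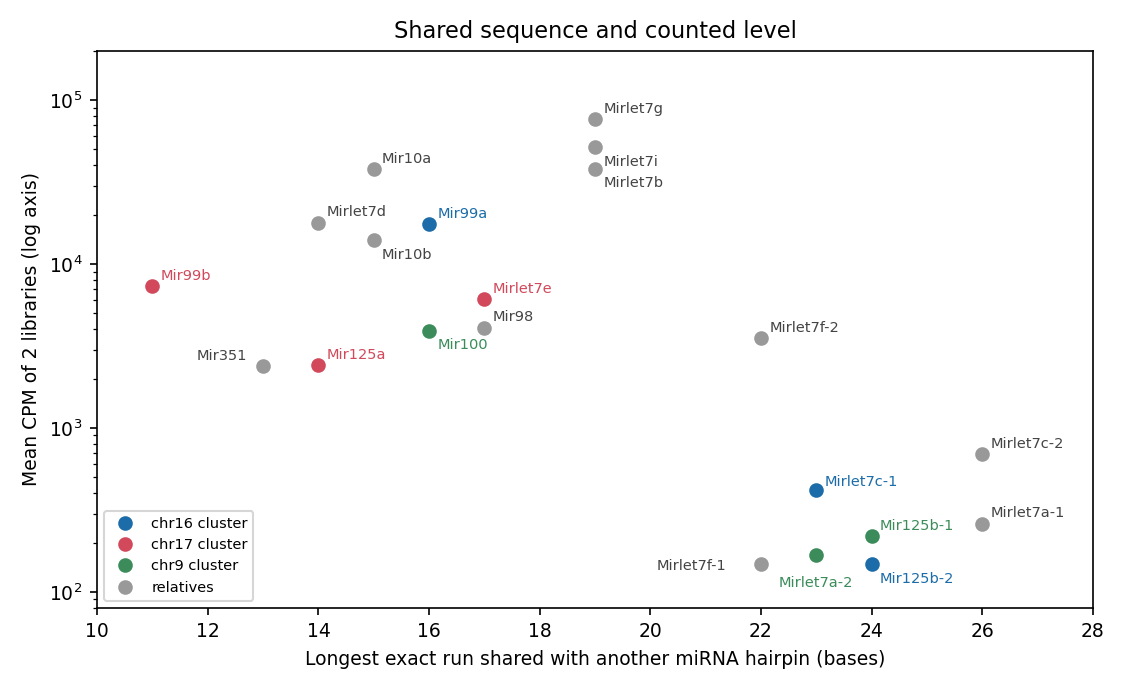
Longest exact run, in bases, that each hairpin shares with another measured miRNA hairpin against the mean CPM of the 2 libraries on a log axis, for the 9 genes (coloured by cluster) and 12 relatives (grey). The 4 members at 23 and 24 bases lie at 148 to 419 CPM, and the 5 members at 11 to 17 bases lie at 2423 CPM or more.

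Set in their seed families, the members held very different shares of the assigned counts. Reads that match 2 hairpins equally well are in no gene, and their part in these shares was not tested. Of the 14 measured genes with the let-7 seed, the 3 members held 2.85% of the family in replicate 1 (2.80 to 2.89) and 3.86% of it in replicate 2 (3.82 to 3.91), and the rest was mostly Mirlet7g, Mirlet7i and Mirlet7b. Of the 6 measured genes with the miR-125 seed, the 3 members held 45.6% (44.8 to 46.5) and 60.2% (59.5 to 60.9). The remainder was Mir351, an X-linked gene of the Mir322 cluster, at 2392 and 2364 CPM, while Mir6367 and Mir6394 had no count in either library, where 3 counts would be 0.992 and 0.866 CPM. Mir125a and Mir351 were thus of similar mean level, at 2423 ± 1087 and 2378 ± 20.0 CPM, and exchanged order between the libraries. The miR-10 genes of the Hox clusters, relatives of miR-99/100, were higher than Mir100, with Mir10a at 37983 ± 790 and Mir10b at 14001 ± 5472 CPM. Mir99a at 17580 ± 738 lay between them in mean, and in replicate 1 it was just below Mir10b at 17870 CPM. In this bulk tissue, fewer cells of a type and less RNA per cell cannot be told apart.

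The member genes were compared between the libraries by a two-sided exact binomial test of each gene's counts, given the library totals, Benjamini-Hochberg adjusted at 0.05 over the 413 miRNA genes of 10 or more counts. It compares these libraries, not conditions, and covers counting error only. Of the 9 members, 7 passed, where 55.4% of all genes tested did. These 7 were higher in replicate 2 and 0 were lower, where 28.8% of all genes tested were higher and 26.6% lower. Abundant genes pass this test more often. Of the 189 genes of 100 CPM or more, which include all 9 members, 83 were higher and 72 lower. By the same test without adjustment 7 members were higher and 0 lower, against 130 and 115 over all genes. With the TMM scaling of edgeR 5 were higher and 1 lower, against 111 and 113. The split depends on the counts and totals used. With unstranded counts, where 8 members were tested, it was 2 higher and 3 lower, against 74 and 139 over all genes. Among unstranded counts Mirlet7e is at 0 and the other members keep their counts. Endothelial Mir126a has 6 and 12 there, against 470778 and 328230 counts on its own strand. The members' median log2 ratio of replicate 2 over replicate 1 was 0.22, against 0.03 over all genes tested. In size the differences were modest. The median absolute log2 ratio of the members was 0.22, against 0.33 over the 189 genes of 100 CPM or more.

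Summed by position, the ratio of replicate 2 over replicate 1 was 1.04 for miR-99/100, 1.32 for let-7 and 1.78 for miR-125. For Mir99b the ratio was 0.997 (0.979 to 1.02), short of the threshold (exact test, adjusted p = 0.856), and it was 0.908 with unstranded counts, 0.979 with TMM scaling and 1.05 without Mir122 in the total, each past the threshold. Mir99a was 1.06-fold higher in replicate 2 (1.05 to 1.07) and Mir100 1.03-fold higher (1.01 to 1.06), but both were called lower with unstranded counts, at 0.966 and 0.941. Marker genes of cell types, the neuroendocrine ones included, were also left out of the total. The ratio of Mir99a was then 0.996 and did not pass, and Mir100 was called lower at 0.970. At the let-7 position, Mirlet7c-1 was 1.31-fold higher (1.22 to 1.42), Mirlet7e 1.32-fold (1.30 to 1.35) and Mirlet7a-2 1.22-fold (1.08 to 1.38, exact test adjusted p = 0.0025). Mirlet7b and Mirlet7c-2 outside the clusters were 1.32-fold and 1.28-fold higher in replicate 2, whereas Mirlet7g, Mirlet7i and Mir98 had ratios of 0.877, 0.835 and 0.732. Of the 9 let-7 genes outside the clusters 5 were higher and 3 lower by the exact test, with a median log2 ratio of 0.15.

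Mir125a, whose mature strand is known to act on the receptor SR-BI, which takes up cholesterol in steroid-making cells, differed most. Its ratio was 1.93 (1.87 to 1.99), and among the members it alone differed by 1.5-fold or more, as 14.3% of all genes tested did in that direction. Mir125b-2 was 1.16-fold higher (1.02 to 1.33, exact test adjusted p = 0.038), a call lost with TMM scaling (adjusted p = 0.073). For Mir125b-1 the ratio was 1.03 (0.928 to 1.15, exact test adjusted p = 0.674), short of the threshold. Mir351, which shares the seed of Mir125a, had a ratio of 0.988 and did not pass either.

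Within the chromosome 17 cluster, whose genes stand within 692 bases, the levels of the 3 genes lay closer together in replicate 2 than in replicate 1. Mir99b over Mir125a was 4.43 (4.29 to 4.57) in replicate 1 and 2.29 (2.24 to 2.34) in replicate 2, and Mir99b over Mirlet7e was 1.40 (1.37 to 1.43) and 1.05 (1.03 to 1.07). Mirlet7e over Mir125a was 3.17 (3.07 to 3.27) and 2.18 (2.13 to 2.23). The intervals of the libraries do not overlap for any of these 3 pairs. On chromosome 16 the same held for Mir99a over Mirlet7c-1, at 47.1 (44.4 to 50.1) and 38.1 (36.2 to 39.99), so a shift within a cluster was not confined to chromosome 17. The intervals overlapped for Mir99a over Mir125b-2, at 125 (113 to 138) and 114 (104 to 124), and for Mirlet7c-1 over Mir125b-2, at 2.64 (2.36 to 2.97) and 2.99 (2.71 to 3.29). On chromosome 9 they overlapped for all 3 pairs. Mir100 over Mir125b-1 was 17.8 (16.5 to 19.3) and 17.8 (16.6 to 19.2), and Mir100 over Mirlet7a-2 was 25.6 (23.3 to 28.2) and 21.7 (20.01 to 23.5). The less abundant genes have the wider intervals, so an overlap does not show that a ratio was the same in the libraries. Ratios within a library do not depend on the total used for scaling.

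**Figure D4:**
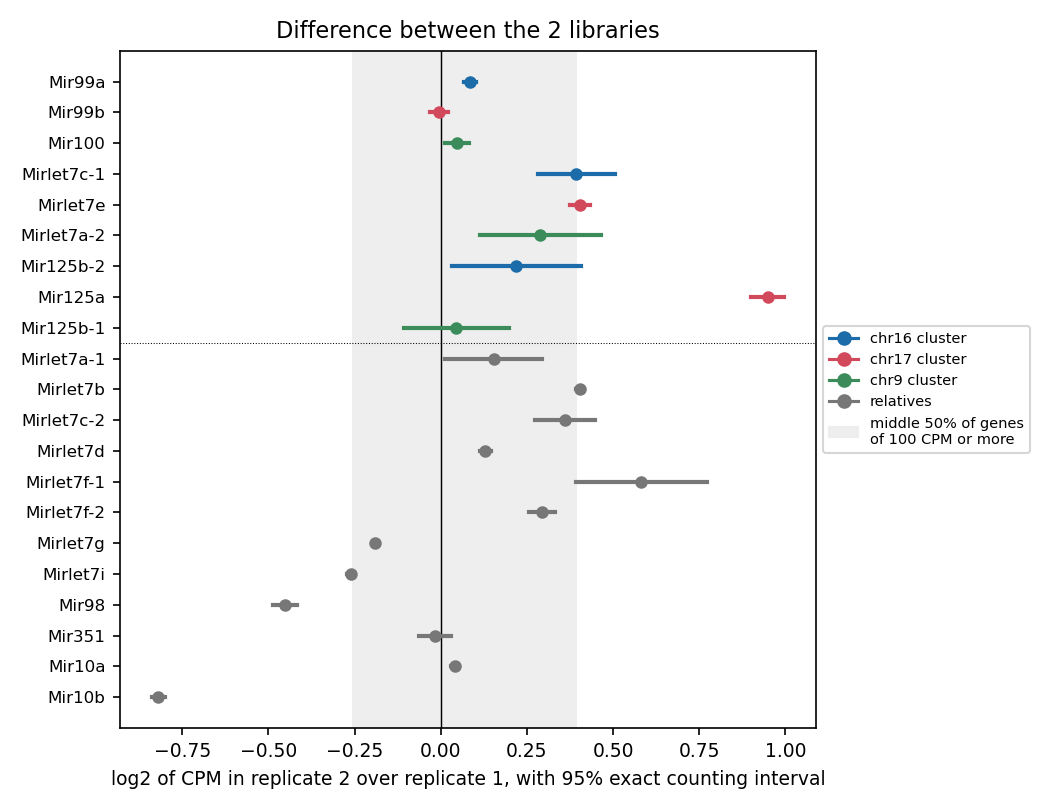
Log2 of CPM in replicate 2 over replicate 1, with 95% exact counting intervals, for the 9 genes (above the dotted line, coloured by cluster) and 12 relatives (grey). The shaded band holds the middle 50% of genes of 100 CPM or more. Mir125a at 0.95 lies well above it, and the 3 miR-99/100 genes lie near 0. Mirlet7e at 0.4044 and Mirlet7c-1 at 0.3938 lie just above its upper edge of 0.3932. Of the relatives, Mirlet7b and Mirlet7f-1 lie above the band, and Mirlet7i, Mir98 and Mir10b below it.

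Markers of cell types and tissues also differed between the libraries. There were 7 lists with 22 genes, the neuroendocrine list included, and 18 of the genes were tested. Of these, 6 were higher in replicate 2 and 7 lower. Mir1a-1, Mir133a-1 and Mir133a-2 of striated muscle were at 0 in each library. The liver list (Mir122, Mir192, Mir194-2) held 0.385% of counts in replicate 1 and 4.98% in replicate 2. The red blood cell list (Mir451a, Mir144, Mir486) held 4.40% and 1.92%. Its Mir451a and Mir486 were lower in replicate 2, while Mir144, at 2093 and 2053 CPM, did not pass. The white blood cell list (Mir142, Mir150, Mir155, Mir223) held 0.347% and 0.171%. Within that list Mir223 went the other way, at 31.1 and 89.5 CPM (2.88-fold higher), while Mir142, Mir150 and Mir155 were lower. Endothelial Mir126a held 15.6% and 9.47%, and the smooth muscle pair of Mir143 and Mir145a 5.24% and 4.46%. Of that pair Mir143 was lower in replicate 2, and Mir145a, at a ratio of 0.998, did not pass. Striated muscle held 0.000628% and 0.000952%. Their part in the member ratios was not tested.

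The genes outside these families that lay nearest to the leading member of each position, by distance of log2(CPM + 1) over the 2 libraries, were chosen by rule. They were Mir335 and Mir127, of imprinted loci, for Mir99a, at distances of 0.36 and 0.44. For Mirlet7e they were Mir93 and Mir191, at 0.31 and 0.35, and for Mir125a they were Mir431 and Mir27b, at 0.39 and 0.53. With 2 libraries such nearness says little beyond a similar level.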

How the data were processed

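Small RNA of 2 adrenal libraries was counted per annotated miRNA gene. The deposited values are raw read counts, 1 file per library, not normalized, on mm10 with GENCODE M21, per the labels and the notes deposited beside the files. Aligner and counter: not given in the sources used here. Below 4 summary rows stand 3 count columns. From the deposited values, they hold unstranded, same-strand and opposite-strand counts, and the same-strand column was used. The arms of a hairpin were not separated, and multimapping reads were not assigned. The summary rows stayed out of totals. They held 57.8% of replicate 1's reads and 59.1% of replicate 2's.

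Positions and host genes are from GENCODE M21, in which all 2202 identifiers were found. Hairpins of its transcripts were searched for shared runs. Counts were scaled to CPM. Intervals are exact, at 95%, for counting error alone: PCR copies of a molecule are not independent. With 1 group there is no contrast of conditions, so an exact binomial test compared the libraries. It was tested on simulated data. Named genes were the 9 members, fixed lists of relatives and cell markers, and the 2 nearest genes of each leading member. The members and lists were chosen with earlier results of these data known. Alternatives were unstranded counts, other totals, edgeR's TMM, DESeq2's size factors, other count minimums, a 1.5-fold limit and each library alone. After seeing the data, division by hairpin length and a total without marker genes were added. TMM came from edgeR 4.0.16 and size factors from DESeq2 1.42.0 in R 4.3.3. Tests used SciPy 1.17.1 with pandas 2.3.3 and NumPy 2.4.6 in Python 3.11.15, and plots matplotlib 3.10.9.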

Additional observations from a re-analysis of the deposited data

Results flagged for a closer look

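Counts stood in a column that no comparison uses. Gm25927, a miRNA annotation on the minus strand of chromosome 17 (17830343-17830459) that covers Mirlet7e, had 0 same-strand counts in each library and 15869 opposite-strand counts in replicate 1 and 24059 in replicate 2. These are the same numbers as the same-strand counts of Mirlet7e, and in the unstranded column both genes are at 0. The design has no controls for comparison, and 2 libraries are too few to look for an outlying one.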

How the results depend on the processing

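The mean levels of the 3 clusters depend on the counts and the total used. For chromosomes 16, 17 and 9 they were 24665, 13209 and 5857 CPM with unstranded counts, 7531, 6564 and 1788 CPM when every read of the file entered the total, and 21672, 18926 and 5142 CPM when genes sharing a 20-base stretch were left out of the total. With TMM or DESeq2 scaling all 3 moved by less than 1 SD, and in every one of these settings the order of the 3 clusters was the same. Each library alone gave 17557 to 18737, 14227 to 17442 and 4222 to 4391 CPM. With unstranded counts Mirlet7e is listed at 0 and Mirlet7e over Mirlet7c-1 and over Mirlet7a-2 became 0, and the members' share of the let-7 seed family 0.304%. Divided by hairpin length, Mir99a over Mir99b was 2.59, Mir99a over Mir100 5.52, Mir99b over Mir100 2.13 and Mirlet7e over Mirlet7c-1 14.7, and the order at each position stayed. The number of members higher in replicate 2, 7, was 2 of the 8 tested with unstranded counts. It was 1 with a 1.5-fold limit and 4 without marker genes in the total. The number lower, 0, was 3 with unstranded counts, 1 with TMM scaling and 2 without marker genes. Over all genes, 119 higher and 110 lower became 74 and 139 with unstranded counts, 59 and 54 with the 1.5-fold limit, 111 and 113 with TMM scaling and 100 and 136 without marker genes. With unstranded counts Mir99a and Mir100 turned to lower, at 0.966 and 0.941. Without marker genes Mir100 turned to lower at 0.970, and the call for Mir99a was lost at 0.996. The call for Mirlet7a-2 was lost with unstranded counts, for Mir100 with TMM scaling, and for Mir125b-2 with unstranded counts, TMM scaling, all genes with a count or no marker genes. The 1.5-fold limit also ended the other member calls. The call for Mir125a held in all 8 alternatives. The cause of these changes was not tested. No paired analysis was possible because there is 1 group.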
